A study of Mus musculus with 35 samples.

Results

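The transcripts described here are those of 7 mouse genes of the BRCA1 and homologous recombination machinery, *Brca1*, *Bard1*, *Brip1*, *Palb2*, *Brca2*, *Rad51ap1* and *Fancd2*, out of 24421 genes counted in each library. They were chosen by name as BRCA1 partners and repair factors, with no measured value in the rule. Earlier results of these data were known when the choice was made. The link to the study is that NELFB, a subunit of the negative elongation factor (NELF) complex that holds RNA polymerase II near promoters, was found as a cofactor of BRCA1 and was then called COBRA1. All 7 transcripts had reads in each of the 35 libraries and passed the filter on low counts in both sets of libraries.

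Poly(A) RNA was sequenced from immortalized mouse embryonic fibroblasts (MEFs) of the genotype *Nelfb* flox/-, which hold 1 null and 1 floxed allele, so that Cre removes the only working endogenous copy. In 20 population libraries (10 groups of 2 independent experiments), cells carrying a stable lentivirus, either empty (EV) or encoding mouse NELFB with a flag tag under a viral promoter, were taken 7 days after an adenovirus with Cre and GFP (Ad-Cre) or GFP alone (Ad-GFP). The NELFB constructs were wild type (WT), MT194, which had lost binding to NELFA and NELFC, MT486, which had lost binding to NELFE, and DMT, which the labels give as MT194 and MT486 together. In 15 clone libraries (5 groups of 3), single colonies had been grown out after Ad-Cre with WT, MT194 or MT486 in the pLenti vector, or with WT(N48) or the C-terminal truncation Δ-C60 in the pBabe vector. The clones had no EV and no Ad-GFP group, so each clone group could only be set against another group labelled with a NELFB construct. A stable vector and adenoviral infection are common to all groups, and each clone library is the progeny of 1 cell. Reads on genes ranged from 17969149 to 29080007 per population library and from 18413284 to 27816723 per clone library. Levels are read counts scaled to library size (CPM, a counts-per-million scale) after TMM scaling, and a gene was called changed at an adjusted p under 0.05 with an absolute log2 fold change over 0.5 in edgeR's quasi-likelihood test.

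Homologous recombination repairs a broken chromosome by copying the sister chromatid, and it works mainly in the S and G2 phases of the cell cycle. BRCA1 and BARD1 form a ubiquitin ligase that acts early at the break, PALB2 bridges BRCA1 to BRCA2, and BRCA2 loads the recombinase onto single-stranded DNA. BRIP1 is a helicase that binds the BRCT repeats of BRCA1, RAD51AP1 stimulates strand invasion, and FANCD2 is the monoubiquitinated core of the Fanconi anaemia pathway, which repairs DNA crosslinks.

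In the mm10 annotation *Brca1* lies on the minus strand at chr11:101488764-101551955 and *Brip1* on the same chromosome and strand at chr11:86058138-86201193. *Bard1* is at chr1:71027498-71103146 on the minus strand. *Palb2* is at chr7:122107262-122132985 on the minus strand and *Brca2* at chr5:150522630-150570329 on the plus strand. *Rad51ap1* (chr6:126923050-126939587, minus strand) and *Fancd2* (chr6:113531682-113597017, plus strand) share a chromosome.

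The upstream sequence of 4 members is shown: *Brca1* itself, its obligate partner *Bard1*, and the members with the levels most like (*Brip1*) and least like (*Brca2*) those of *Brca1* in the populations described below. Each run is the 250 bases before the RefSeq start of transcription (GRCm38.p6, 5′ to 3′ on the strand of the gene), and capitals mark a match to one of 3 kinds of cell cycle promoter motif, searched on both strands. These were the CCAAT box bound by NF-Y (read as ATTGG on the opposite strand), the E2F sites TTTCCCGC and TTTGGCGC, and the cell cycle homology regions TTTGAA and TTCGAA. The windows are chr11:101551956-101552205 for *Brca1*, chr11:86201194-86201443 for *Brip1*, chr1:71102973-71103222 for *Bard1* and chr5:150522371-150522620 for *Brca2*.
Brca1: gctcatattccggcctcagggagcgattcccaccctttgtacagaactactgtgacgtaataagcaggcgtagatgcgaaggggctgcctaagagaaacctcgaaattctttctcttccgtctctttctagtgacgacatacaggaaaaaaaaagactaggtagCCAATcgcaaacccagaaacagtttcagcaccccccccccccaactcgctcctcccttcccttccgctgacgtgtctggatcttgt
Brip1: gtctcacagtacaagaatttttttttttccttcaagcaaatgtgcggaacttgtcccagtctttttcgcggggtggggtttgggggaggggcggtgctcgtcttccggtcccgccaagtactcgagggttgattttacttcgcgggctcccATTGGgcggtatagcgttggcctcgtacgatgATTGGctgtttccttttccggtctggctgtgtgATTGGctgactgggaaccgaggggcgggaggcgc
Bard1: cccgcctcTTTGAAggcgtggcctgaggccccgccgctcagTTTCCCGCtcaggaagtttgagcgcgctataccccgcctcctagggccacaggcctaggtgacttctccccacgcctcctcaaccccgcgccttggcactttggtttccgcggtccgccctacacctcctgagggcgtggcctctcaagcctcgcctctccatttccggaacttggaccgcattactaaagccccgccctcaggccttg
Brca2: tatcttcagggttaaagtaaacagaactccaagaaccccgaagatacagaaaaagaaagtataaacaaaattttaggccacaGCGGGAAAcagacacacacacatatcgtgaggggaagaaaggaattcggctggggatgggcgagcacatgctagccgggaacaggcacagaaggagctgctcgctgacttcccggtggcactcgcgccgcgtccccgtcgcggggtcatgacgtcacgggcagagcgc

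*Brca1* held 1 CCAAT box, whose first base lies at -86 from the start, and *Brip1* held 3, all on the opposite strand, at -99, -67 and -34. *Rad51ap1* held 2 on the opposite strand, at -230 and -36. A CCAAT box was found in 33.8% of 32851 RefSeq promoter windows of the same length, and 3 or more of them in 2.79%. *Bard1* held an E2F match at -209 and a TTTGAA match at -242, and *Brca2* an E2F match on the opposite strand at -168. An E2F match of either spelling stood in 1.3% of all windows and a TTTGAA or TTCGAA match in 17.1%. The *Palb2* window held none of these letters, and *Fancd2* was not matched, so that 6 of the 7 members were searched. All distances are from the RefSeq start. For *Bard1* and *Palb2* this start lies inside the mm10 gene span given above, and so does part of the window. A match describes the letters only and says nothing of binding in these cells.

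The deleted gene was examined before its effects. In EV cells *Nelfb* stood at 46.1 and 39.5 CPM after Ad-GFP and at 7.97 and 5.46 CPM after Ad-Cre, a log2 fold change of -2.67 (SE 0.22, edgeR adjusted p = 2.53e-05). The counts do not separate endogenous from ectopic *Nelfb* mRNA, so the Ad-Cre populations with a construct held more, from 60.5 and 75.9 CPM with WT to 169 and 208 CPM with DMT. The transcripts of the other NELF subunits were not called in EV cells, with log2 fold changes of -0.13 for *Nelfa*, 0.13 for *Nelfcd* and -0.25 for *Nelfe*. All 20 populations carried fibroblast transcripts, with a summed level over 11 fibroblast genes of 21667 to 50292 CPM, led by *Fn1*. The 6 epithelial genes summed to 0.159 to 1.29 CPM, the 4 endothelial genes to 0.286 to 1.25 CPM and the 5 blood cell genes to 3.94 to 10.0 CPM. In the clones the same sums were 7482 to 26150, 0.415 to 2.07, 0.175 to 5.03 and 0.871 to 6.03 CPM.

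Read per length, as CPM per kilobase of merged exon (RPKM), *Brca1* was the most abundant of the 7 transcripts in the populations and *Palb2* the least. The population medians were 4.88 RPKM for *Brca1*, 3.48 for *Rad51ap1*, 2.27 for *Bard1*, 2.10 for *Brca2*, 1.91 for *Brip1*, 1.65 for *Fancd2* and 0.947 for *Palb2*. In the clones *Brca1* also led at 12.7 RPKM, followed by *Rad51ap1* at 9.62, and *Palb2* was again lowest at 1.34. Each member had a higher median in the clones than in the populations, a difference that was not tested because the sets were prepared as separate experiments.

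*Brca1*, the ligase subunit at the head of the pathway, was lowest in the population that had lost NELFB. Its levels in EV cells were 33.1 and 50.03 CPM after Ad-GFP and 27.8 and 21.1 CPM after Ad-Cre. With WT NELFB they were 33.9 and 35.1 CPM after Ad-GFP and 46.9 and 55.4 CPM after Ad-Cre. The EV groups did not overlap, nor did the WT groups, and the difference ran in opposite directions. The share of all genes whose groups did not overlap was not counted, here or below. With MT194 the values were 42.8 and 53.2 CPM after Ad-GFP and 48.6 and 32.3 CPM after Ad-Cre. With MT486 they were 39.5 and 57.0 CPM, then 57.0 and 47.5 CPM, and with DMT 36.8 and 40.4 CPM, then 49.95 and 32.0 CPM. In these 3 mutants the Ad-GFP and Ad-Cre values overlapped. Within each of the 3, *Brca1* was higher after Ad-Cre in replicate 1 and lower in replicate 2. In EV cells it was lower in both, from 33.1 to 27.8 CPM in replicate 1 and from 50.03 to 21.1 CPM in replicate 2. With WT it was higher in both. This difference between replicates was not tested. In the order of the 10 group means, which ran from 52.3 CPM in MT486-Cre to 24.5 CPM in EV-Cre, neighbouring groups were apart at only 2 of 9 steps: DMT-GFP lay above WT-GFP, and WT-GFP above EV-Cre.

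The lowest group was the same as for *Brca1* in some of the other members, but not in all. EV-Cre had the lowest group mean for *Bard1* (8.68 ± 2.69 CPM, SD, n = 2), *Brip1* (9.75 ± 2.27 CPM), *Rad51ap1* (14.3 ± 3.20 CPM) and *Fancd2* (10.8 ± 2.50 CPM). *Palb2* (5.65 ± 0.883 CPM) and *Brca2* (19.4 ± 0.291 CPM) were instead lowest in WT-GFP. MT486-Cre held the highest mean of all members except *Bard1*, which was highest in DMT-Cre at 16.5 ± 3.60 CPM. From the lowest to the highest group mean the levels spanned 1.58-fold for *Palb2* and 2.23-fold for *Brip1*, with the other 5 between. Most neighbours in these orders overlapped: *Bard1* and *Palb2* had no step apart of 9, and *Brca2*, *Brip1*, *Rad51ap1* and *Fancd2* had 1 each. Steps apart were not counted over all genes, so these counts are not read as a trait of the members.

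**Figure D1:**
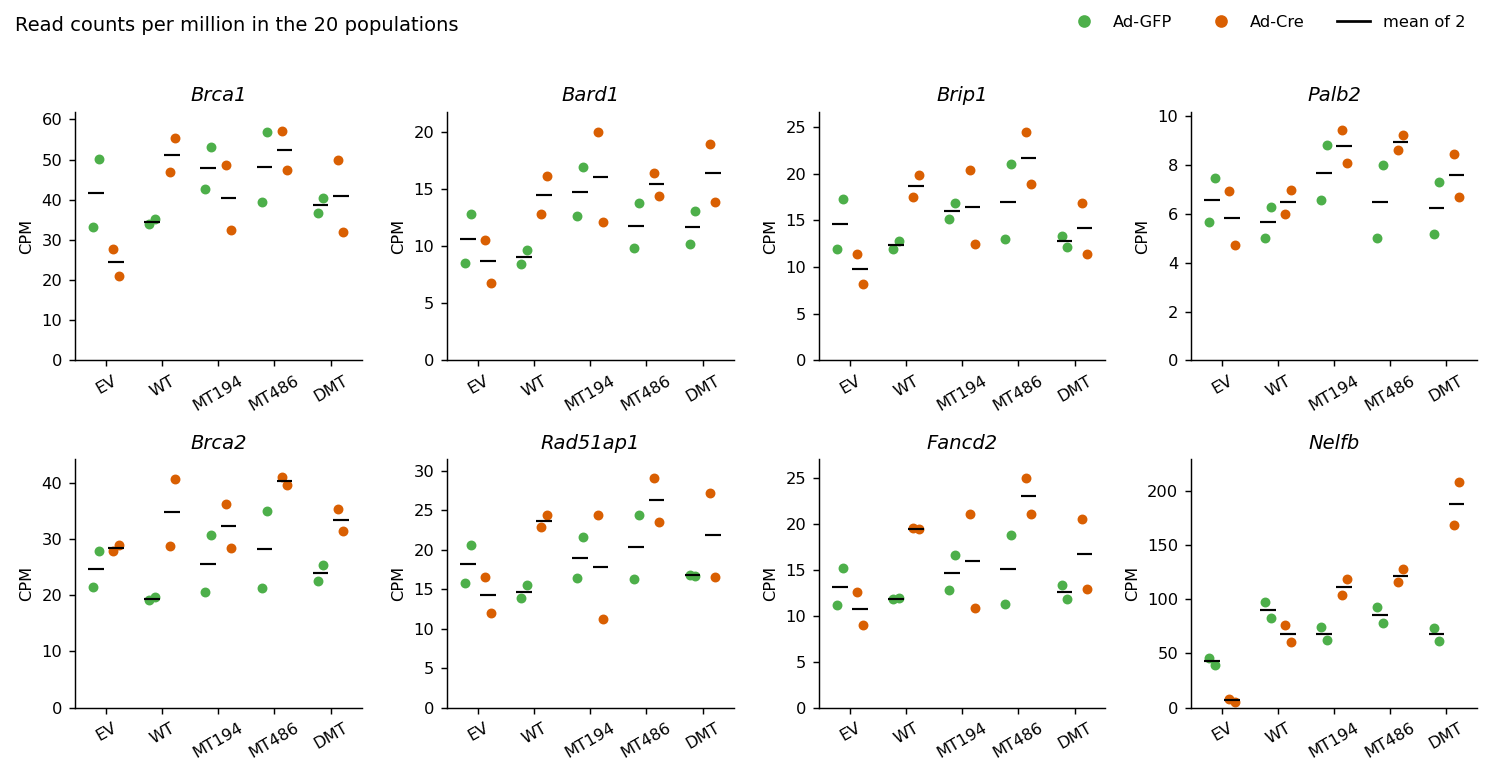
CPM (vertical axis, linear from 0) of the 7 members and of *Nelfb* in the 20 populations by construct, with 1 point per library, Ad-GFP in green, Ad-Cre in orange and a bar at the mean of 2. For *Brca1* the orange EV points are the lowest of all 20, whereas for *Brca2* the orange mean lies above the green mean in every construct.

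The Ad-Cre against Ad-GFP comparison asks how each transcript differed 7 days after the floxed allele was removed, in cells with and without a replacement. In EV cells 6 of the 7 members were lower and none was called, against 11.8% of the 13805 genes tested. *Brca1* had the largest difference, at -0.76 on the log2 scale (SE 0.28, edgeR adjusted p = 0.0949), and between -1.03 and -0.44 with 1 library left out. *Brip1* followed at -0.58 (SE 0.30, adjusted p = 0.245, between -0.84 and -0.29 with 1 left out), and its values were 11.9 and 17.3 CPM after Ad-GFP and 11.4 and 8.15 CPM after Ad-Cre. *Rad51ap1*, *Bard1*, *Fancd2* and *Palb2* lay between -0.35 and -0.17, and *Brca2* at 0.20. With 1 library left out the sign turned for *Palb2* (-0.48 to 0.08) and *Bard1* (-0.66 to 0.03). In bulk RNA fewer cells in the phases that use these genes and less RNA per cell cannot be told apart.

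With WT NELFB the same comparison ran upwards for all 7 members, from 0.20 for *Palb2* to 0.84 for *Brca2*, and none was called (background 0.0217%, which is 3 genes, *Acta2*, *Cnn1* and *Sprr1a*, named after their values were seen). The Ad-GFP and Ad-Cre values of *Palb2* overlapped. *Brca2* stood at 19.2 and 19.6 CPM after Ad-GFP and at 28.8 and 40.7 CPM after Ad-Cre, which gave an adjusted p of 0.486 in edgeR, and with the replicate number as a block a log2 fold change of 0.83 and an adjusted p of 0.0441 in a fit that called 3.09% of genes. No member was called with MT194 (background 4.22%), where differences ran from -0.25 to 0.34, with MT486 (background 2.42%), where they ran from 0.12 to 0.61, or with DMT (background 9.92%), where they ran from 0.09 to 0.49.

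The difference between the Cre effect in WT and that in EV cells was itself tested. It was positive for all 7 members, from 0.37 for *Palb2* to 1.33 for *Brca1* (SE 0.39, unadjusted p = 0.00496, edgeR adjusted p = 0.168), and none was called against 0.681% of genes. That background was 94 genes, and 5 to 40 with 1 library left out. The replicate block called 13.4% of genes and still no member. For MT194, MT486 and DMT the difference from EV was also positive for all 7 members and none was called, against 0.00724% of genes in each, a single gene that was *Nelfb* itself. For MT194 the sign turned in 3 members when 1 library was left out, with ranges of -0.40 to 0.72 for *Rad51ap1*, -0.16 to 0.81 for *Fancd2* and -0.12 to 0.45 for *Brca2*. These 4 comparisons share the EV libraries and are not independent of each other. Without deletion, in the Ad-GFP groups taken on the same day, the constructs made no called difference to any member. These groups differed from EV-GFP by -0.35 to 0.47, against backgrounds of 0% for WT, MT194 and DMT (84, 276 and 175 genes had an unadjusted p under 0.05 in edgeR, and DESeq2 called 1, 4 and 3) and 0.00724% for MT486, which is the gene *Ndn*, named after its value was seen.

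The comparison of each NELFB construct with EV, all after Ad-Cre, asks which transcripts stood higher in cells that still made some form of NELFB. All 7 members were higher with each of the 4 constructs, but all 4 comparisons use the same 2 EV-Cre libraries, and with 1 library left out the sign turned for *Palb2* with WT and *Rad51ap1* with MT194. With WT NELFB *Brca1* rose by 1.06 on the log2 scale (SE 0.28, edgeR adjusted p = 0.0362). In this fit, which held no replicate term, 7.37% of all genes were called and 3.89% were called higher. Of the 7 members only *Brca1* was called in it. Its values were 46.9 and 55.4 CPM against 27.8 and 21.1 CPM, with no overlap. The call was lost when any 1 of the 4 libraries was left out, at log2 fold changes of 0.88 to 1.28 and adjusted p of 0.0623 to 0.285, and the adjusted p was 0.0505 when the fit held these 4 libraries alone.

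*Brip1*, the helicase partner, stood at 17.5 and 19.8 CPM in WT-Cre against 11.4 and 8.15 CPM in EV-Cre (log2 fold change 0.93, SE 0.30, edgeR adjusted p = 0.0744). With the replicate block its adjusted p was 0.0284 and that fit called 23.0% of genes. *Fancd2* stood at 19.5 and 19.4 CPM against 12.5 and 8.99 CPM (0.86, adjusted p = 0.135). *Bard1* and *Rad51ap1* differed by 0.74 and 0.73, while the bridge *Palb2* and its partner *Brca2* differed by only 0.15 and 0.29. WT-Cre and EV-Cre values overlapped for *Palb2* and for *Brca2*, at 28.8 and 40.7 CPM against 27.8 and 29.0 CPM.

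With MT486 the differences from EV-Cre were larger in value than with WT for all 7 members, from 0.50 for *Brca2* to 1.15 for *Brip1*, and this excess was not tested. *Brca1* stood at 57.0 and 47.5 CPM (log2 fold change 1.09, SE 0.28, edgeR adjusted p = 0.109), *Brip1* at 24.5 and 18.9 CPM (1.15, adjusted p = 0.113) and *Fancd2* at 24.9 and 21.0 CPM (1.09, adjusted p = 0.169). None of the 7 members was called, against 0.362% of genes. With the replicate block *Brca1*, *Brip1* and *Fancd2* were called, at adjusted p of 0.0321, 0.0237 and 0.0458, in a fit that called 8.95% of genes. With MT194 the differences ran from 0.19 for *Brca2* to 0.89 for *Bard1* (20.1 and 12.1 against 10.6 and 6.78 CPM), with no member called against 0.225%. With DMT they ran from 0.24 for *Brca2* to 0.92 for *Bard1*, with no member called against 0.00724%, again *Nelfb* alone.

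Taking the mean of the 4 constructs against EV-Cre, a comparison added after the data were seen, *Brca1* differed by 0.91 (SE 0.23, edgeR adjusted p = 0.0771), *Bard1* and *Brip1* by 0.84 each (adjusted p = 0.124 and 0.111) and *Fancd2* by 0.79 (adjusted p = 0.179). *Rad51ap1* followed at 0.64, *Palb2* at 0.43 and *Brca2* at 0.30. None was called, against 1.33% of genes. With the replicate block *Brca1* (adjusted p = 0.0244), *Bard1* (0.0347) and *Brip1* (0.0299) were called, against 9.24%.

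**Figure D2:**
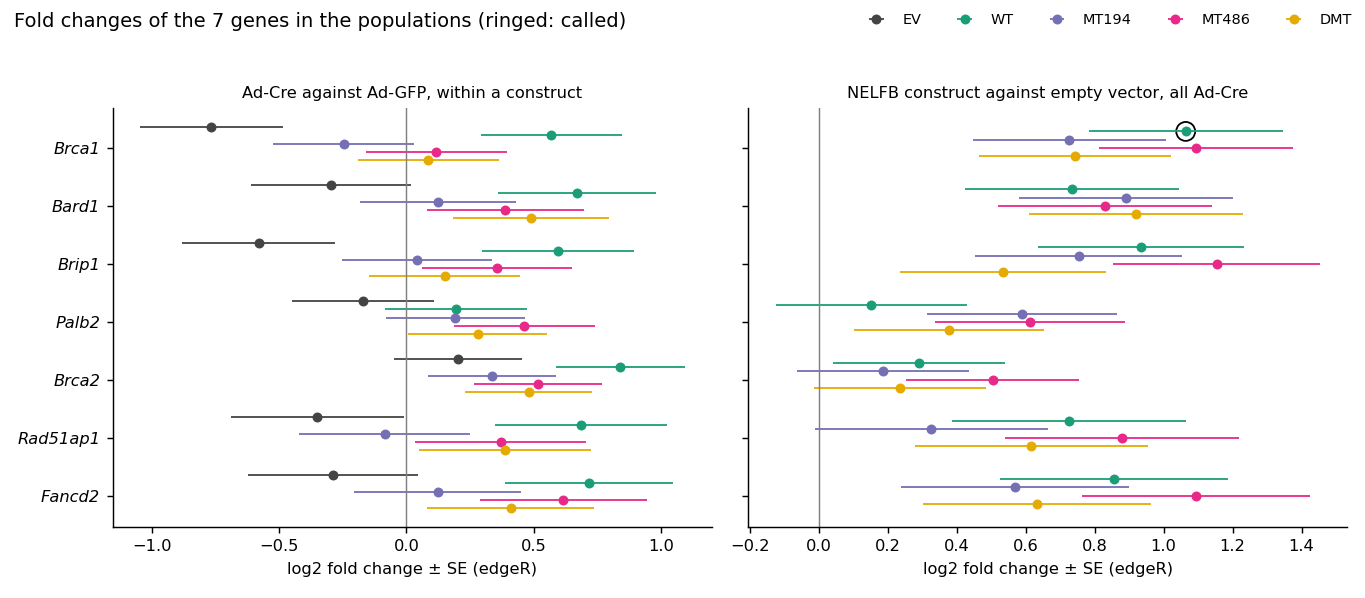
Fitted log2 fold changes (horizontal axes, with separate scales) with standard errors for the 7 members, by construct, for Ad-Cre against Ad-GFP (left) and for each NELFB construct against EV, all after Ad-Cre (right). On the left 6 of 7 EV points lie below 0 and all WT points above it. On the right all 28 points lie above 0, and the ring marks *Brca1* with WT NELFB. It is the only difference called in the main fit, which held no replicate term.

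*Brca2*, the loader of the recombinase, was the member that was not lower in EV cells after Ad-Cre. It stood at 21.5 and 27.8 CPM after Ad-GFP and at 27.8 and 29.0 CPM after Ad-Cre. Averaged over the 5 constructs, a comparison added after the data were seen, it was higher after Ad-Cre by 0.48 on the log2 scale (SE 0.11, edgeR adjusted p = 0.00543, mean 33.8 against 24.4 CPM), which is past the threshold on p and under that on size, so it was not called. Of all genes 16.7% were called in this comparison. *Fancd2* and *Bard1* followed at 0.32 and 0.28, and *Brca1* stood at -0.05. When each of the 20 libraries was left out in turn, the *Brca2* value ran from 0.41 to 0.55 and was called in 5 of the 20 fits. These fits called 2149 to 2417 genes each.

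The ratio of *Brca1* to *Brca2* CPM within each library puts both courses together (it was chosen after the values were seen, and is given without a test). In EV cells it was 1.54 and 1.80 after Ad-GFP and 1.00 and 0.727 after Ad-Cre. In WT cells it was 1.76 and 1.79, then 1.63 and 1.36. With MT194 it went from 2.08 and 1.73 to 1.34 and 1.14, with MT486 from 1.85 and 1.63 to 1.39 and 1.201, and with DMT from 1.63 and 1.59 to 1.41 and 1.02. The ratio was lower after Ad-Cre in all 10 pairs of one construct and one replicate number, by -0.12 to -1.30 on the log2 scale (mean -0.54, SD 0.33). Both replicates of EV showed a lower ratio than any other Ad-Cre library.

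**Figure D3:**
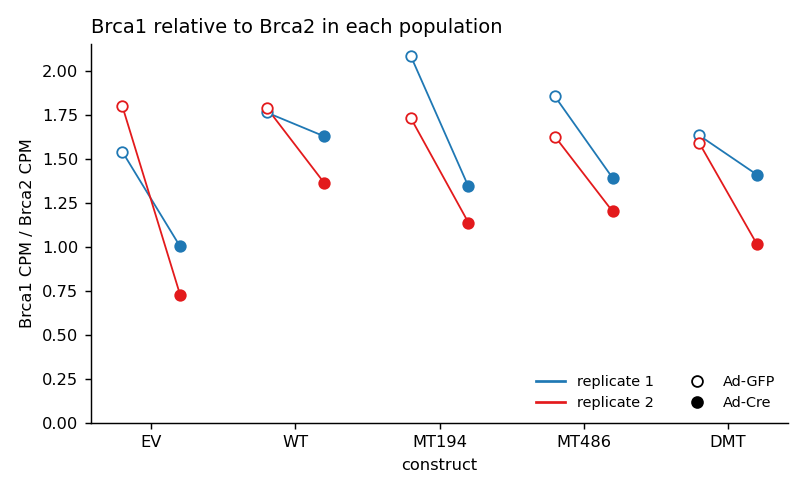
Ratio of *Brca1* to *Brca2* CPM (vertical axis, from 0) by construct, with open circles for Ad-GFP, filled circles for Ad-Cre and a line joining the libraries of 1 replicate number. All 10 lines fall, from open circles between 1.54 and 2.08 to filled circles between 0.727 and 1.63.

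The wider pathway was read from lists of other genes, chosen with earlier results of these data known. No test was run over a list, and each is described beside the median over all 13805 genes, which was 0.00 in EV cells. Among 40 other homologous recombination genes 25 were lower and 15 higher after Ad-Cre in EV cells, with a median of -0.10 and 1 called against 11.8% of all genes. It was *Chek2*, a checkpoint kinase that phosphorylates BRCA1. *Chek2* stood at 10.96 and 12.7 CPM after Ad-GFP and fell to 7.52 and 5.79 CPM after Ad-Cre (log2 fold change -0.83, edgeR adjusted p = 0.0186). In WT-Cre it was at 14.0 and 13.7 CPM, 1.06 above EV-Cre (adjusted p = 0.00854). The other gene of this list called there was *Rad54l*, a DNA translocase of strand invasion (1.22, adjusted p = 0.0316, named after its value was seen), and the list median was 0.36. These 2 calls of 40, both higher, stand beside 7.37% of all genes called and 3.89% called higher, and the list's share was not tested against these.

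The remaining subunits of the BRCA1 A, B and C complexes had medians of the opposite sign. Their 6 genes had a median of 0.31 in EV cells, with 1 called against the 11.8% of all genes, *Fam175a*, which encodes the Abraxas scaffold of the A complex. It rose from 7.52 and 10.8 CPM to 13.8 and 16.7 CPM (0.74, edgeR adjusted p = 0.0284), and in WT-Cre it was at 8.73 and 10.7 CPM, where the list median against EV-Cre was -0.31 and none was called. Of 18 other Fanconi anaemia genes 12 were lower and none was called in EV cells (background 11.8%, median -0.09), with the smallest adjusted p for the nuclease *Ercc4* (0.40, adjusted p = 0.0283, under the threshold on size). Against EV-Cre, WT-Cre had 1 of them called (background 7.37%), *Fanci*, which pairs with FANCD2 (1.14, adjusted p = 0.041, named after its value was seen). Of 12 genes of non-homologous end joining, the alternative repair route, the ligase *Lig4* rose (0.51, adjusted p = 0.0444) and *Nhej1* fell (-0.85, adjusted p = 0.00837) in EV cells, 2 calls of 12 beside a background of 11.8%, and none was called between WT-Cre and EV-Cre (background 7.37%).

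The medians of the cell cycle lists had the same sign as those of the members, and G2 and mitosis had the larger values. All 28 genes of G2 and mitosis were lower after Ad-Cre in EV cells (median -0.80) and 2 were called against 11.8% of all genes, *Ccnb1*, the mitotic cyclin (-1.30, edgeR adjusted p = 0.0480), and *Bub1b*, a spindle checkpoint kinase (-1.30, adjusted p = 0.0288). *Bub1b* stood at 66.2 and 97.4 CPM after Ad-GFP, at 40.9 and 25.7 CPM after Ad-Cre, and at 106 and 118 CPM in WT-Cre. Against EV-Cre all 28 were higher in WT-Cre with 15 called (median 1.37), where 7.37% of all genes were called and 3.89% called higher. All 28 were also higher with MT194 (median 1.09), MT486 (1.33) and DMT (0.85), with none called in comparisons that called 0.225%, 0.362% and 0.00724% of all genes. Their summed level was 1382 and 866 CPM in the EV-Cre libraries, lower than in the other 18 populations, and 2563 and 2884 CPM in WT-Cre. The 37 genes of S phase and replication showed a median of -0.06 and no call in EV cells, and of 0.62 with 4 called between WT-Cre and EV-Cre (backgrounds 11.8% and 7.37%). These were, named after their values were seen, *Tk1*, the thymidine kinase (1.28, adjusted p = 0.0288), *Pola1* and *Pold1* of the replicative polymerases (0.89 and 0.76, adjusted p = 0.0396 and 0.0498) and *Rfc5* of the clamp loader (0.79, adjusted p = 0.0362). *Rfc3*, also of the clamp loader, had the smallest p of that list in EV cells (-0.58, adjusted p = 0.153). The part of the cell cycle in the *Brca1* result was not tested.

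Genes with the pattern most like *Brca1* over the 20 populations were, ranked among 9439 genes averaging 10 CPM or more, *Cenpe* (Pearson r = 0.978), *Casc5* (0.977), *Kif20b* (0.975), *Arhgap11a* (0.967) and *Kif15* (0.967), mostly kinesins and kinetochore genes of mitosis. *Brip1* had r = 0.944 (rank 25), *Rad51ap1* 0.865, *Fancd2* 0.849, *Bard1* 0.795 and *Brca2* 0.505 (rank 629), while *Nelfb* itself had 0.549. Between pairs of members r ran from 0.505 for *Brca1* with *Brca2* to 0.956 for *Rad51ap1* with *Fancd2* (median 0.791 of 21 pairs). These values describe 20 libraries that share constructs, experiments and depth.

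The clones need 3 remarks on their libraries. The WT-labelled clones held *Nelfb* at 10.3, 109 and 15.5 CPM (200, 2637 and 306 reads), so that clones 1 and 3 lay far below all other clones, which ranged from 56.3 to 247 CPM, and nearer to the 7.97 and 5.46 CPM of the EV-Cre populations, which were scaled separately. Their *Nelfb* levels thus go against a label of expressed WT NELFB, so the group is called WT-labelled and the values of the members are also given without both. MT486 clones 1 and 2 were closer to each other than any other pair of one group, with a median chi-square of 2.42 times its expectation over genes, against 10.4 to 107 in the other clone pairs and 9.28 to 27.2 in the population pairs. Whether they are independent colonies was not tested. They were kept apart in all fits, and summed as an alternative only for MT486 against WT-labelled clones. The vector differs between WT-labelled and Δ-C60 clones, so that vector and truncation cannot be told apart there, whereas WT(N48) shares the vector of Δ-C60.

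*Palb2*, the bridge to BRCA2, and *Fancd2* were the members called lower in Δ-C60 than in WT-labelled clones, where 8.33% of 13223 genes were called in either direction and 3.22% lower. *Palb2* stood at 14.2, 13.9 and 16.2 CPM in WT-labelled clones and at 6.90, 9.59 and 7.55 CPM in Δ-C60 clones (log2 fold change -0.88, SE 0.21, edgeR adjusted p = 0.0272). *Fancd2* stood at 42.0, 45.5 and 39.6 CPM against 26.7, 18.9 and 29.2 CPM (-0.76, SE 0.18, adjusted p = 0.0255). Neither pair of groups overlapped. In the 6 fits that each lacked 1 library, which called 100 to 1779 genes each, *Palb2* was called in 1 fit (-0.79 to -1.03) and *Fancd2* in 3 (-0.60 to -0.89). Both calls were lost when the compared groups were fitted alone, a fit that called 0.627% of genes. Without WT-labelled clones 1 and 3 the values were -0.82 for *Palb2* and -0.89 for *Fancd2*, in a fit with 1 WT-labelled clone, assumed to vary like the other groups, that called only 0.0214% of genes, so its calls say nothing of these members.

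*Brca1* stood at 129, 140 and 128 CPM in WT-labelled clones and at 103, 76.8 and 61.0 CPM in Δ-C60 clones (-0.73, SE 0.25, edgeR adjusted p = 0.0885). *Brip1* and *Rad51ap1* differed by -0.67 and -0.59, and *Bard1* and *Brca2* by -0.11 and -0.07. Without WT-labelled clones 1 and 3 these 5 lay between -0.83 (*Brca1*) and -0.38 (*Rad51ap1*). Against WT(N48), in the same vector, all 7 members were lower in Δ-C60 clones, at log2 fold changes of -0.17 to -0.48, with none called. With 1 clone left out the sign turned for *Brip1* (-0.35 to 0.16) and *Brca2* (-0.58 to 0.01). No gene at all was called by edgeR in that comparison (background 0%, with 1540 genes at an unadjusted p under 0.05 and 232 called by DESeq2). The edgeR count of 0 rested on Δ-C60 clone 2, without which edgeR called 2.33% of genes and still no member. *Brca1* in WT(N48) clones ran widely, at 78.1, 92.9 and 147 CPM.

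In MT194 clones all 7 members were lower than in WT-labelled clones and none was called in edgeR (background 2.9%, or 0 to 346 genes in place of 384 with 1 clone left out). *Rad51ap1* differed by -0.74 (adjusted p = 0.0885), *Palb2* by -0.70 (0.0844) and *Fancd2* by -0.62 (0.0757), and DESeq2, which called 8.6% of genes, called these 3 at adjusted p of 0.0435, 0.0274 and 0.0257. *Fancd2* in MT194 clones stood at 25.7, 32.5 and 24.5 CPM, below each WT-labelled clone. Without WT-labelled clones 1 and 3 all 7 stayed lower, from -0.27 to -0.90, in a fit that called 1 gene in all. In MT486 clones 6 of 7 were lower, led by *Fancd2* at -0.61 (27.4, 27.9 and 28.1 CPM, edgeR adjusted p = 0.282), with none called and no gene called at all (background 0%, with 1176 genes at an unadjusted p under 0.05 and 163 called by DESeq2). Without WT-labelled clones 1 and 3 the values ran from -0.05 to -0.81. In WT(N48) clones 5 were lower and none was called (background 2.1%), with *Palb2* at -0.57 (10.8, 9.79 and 9.32 CPM, adjusted p = 0.147), and without those 2 clones the members lay between -0.50 and 0.03.

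**Figure D4:**
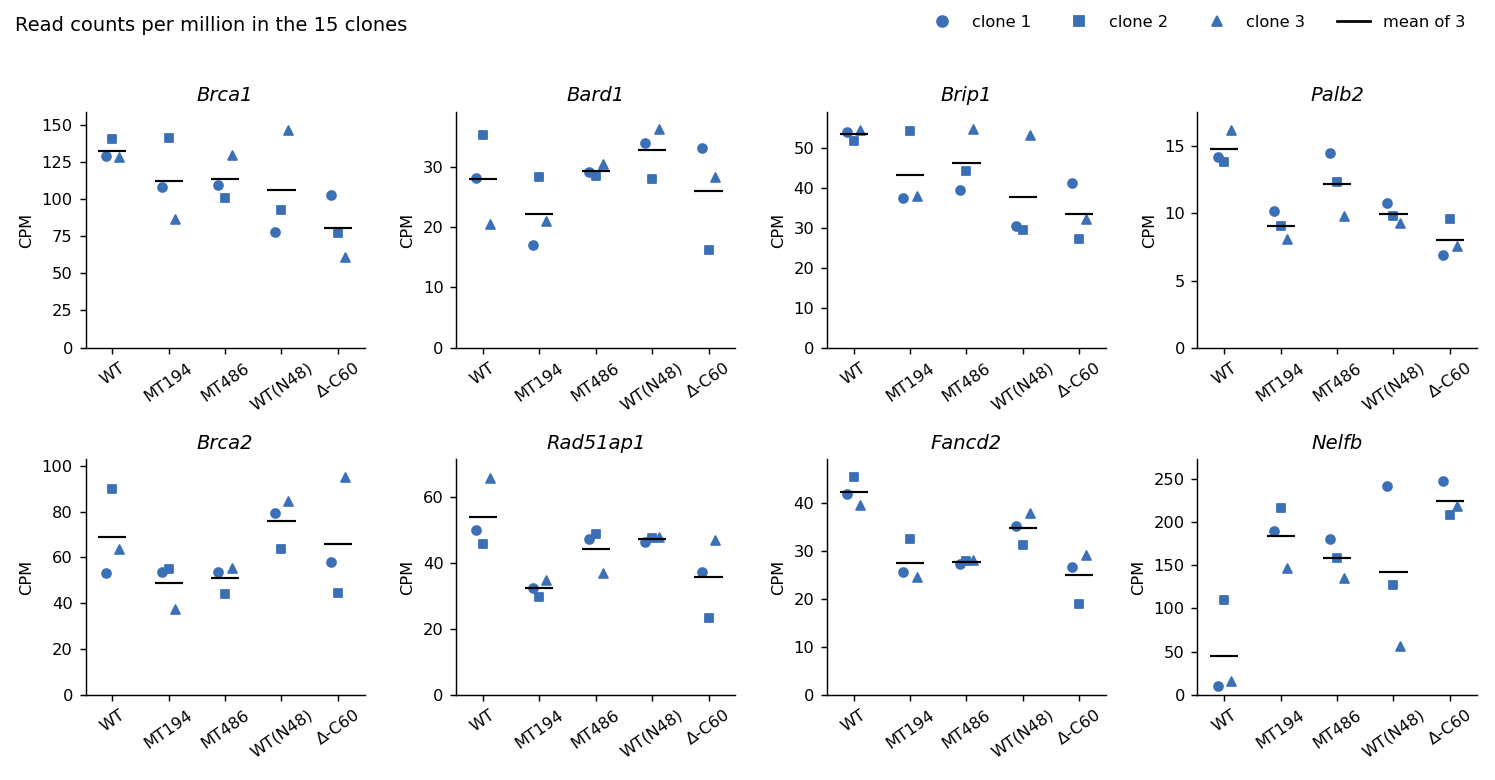
CPM (vertical axis, linear from 0) of the 7 members and of *Nelfb* in the 15 clones, with 1 symbol per clone number and a bar at the mean of 3. The *Nelfb* panel shows WT-labelled clones 1 and 3 at 10.3 and 15.5.

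In the pathway lists, Δ-C60 clones had 4 of 40 other homologous recombination genes called lower than in WT-labelled clones and none higher (median -0.43, against 0.04 over all genes, of which 8.33% were called and 3.22% called lower): *Rad54l* (-0.88), *Rad51d* (-1.02), *Recql5* (-0.75) and *Fignl1* (-0.66). All genes named in this comparison of lists were named after their values were seen. *Fancg* (-0.79) of the Fanconi list and *Xrcc6* (-0.80) of end joining were also called lower. Of the 37 S phase genes 5 were called lower, *Cdt1* (-1.22), *Gins3* (-0.89), *Pola1* (-0.82), *Pold1* (-0.79) and *Mcm2* (-0.78), while of 28 G2 and mitosis genes, of which 16 had positive and 12 negative values (median 0.08), 1 was called lower, *Aurkb* (-0.69). The 6 other subunits of the BRCA1 complexes had a median of -0.23 with none called. Against WT(N48) none of the genes in these lists was called, nor was any other gene (background 0%, or 2.33% without Δ-C60 clone 2, a fit in which the lists were not counted).

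Clones also differed by chromosome region. The genes most like *Brca1* over the 15 clones were *Mut* (Pearson r = 0.927), *Unk* (0.900), *D11Wsu47e* (0.897), *Cog1* (0.888) and *Brip1* (0.881). Of the 30 genes most like it 20 lay on chromosome 11, which holds 8.05% of the genes ranked, whereas over the populations 6 of 30 did (7.87% of those ranked). *Brca1* itself correlated with the median of its 191 neighbours within 10 Mb at r = 0.891 in the clones and 0.258 in the populations. For *Rad51ap1* the values were 0.953 with 85 neighbours and 0.223, and over the 7 members they ran from 0.380 (*Brca2*) to 0.953 in the clones and from -0.293 to 0.393 in the populations. The points of each r share the libraries and their scaling.

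Single clones stood far from the mean. In Δ-C60 clone 3 *Brca1* lay -0.79 from the clone mean on the log2 scale and its neighbours -0.48, and in Δ-C60 clone 2 *Rad51ap1* lay at -0.83 with neighbours at -0.56, and *Fancd2* at -0.70 with neighbours at -0.53. Others were far off without their neighbours: *Brip1* in Δ-C60 clone 2 lay at -0.61 with neighbours at -0.0022, and *Brca2* in MT194 clone 3 at -0.67 with neighbours at 0.04. In the group comparison of Δ-C60 with WT-labelled clones the neighbour medians were -0.27 for *Brca1*, -0.31 for *Rad51ap1*, -0.24 for *Brip1*, -0.20 for *Fancd2* and -0.07 for *Palb2*, and of the opposite sign to the member at 0.18 for *Bard1* and 0.12 for *Brca2*. In MT194 against WT-labelled clones they were -0.33 for *Rad51ap1*, -0.21 for *Fancd2*, -0.12 for *Brip1* and -0.06 for *Palb2*, and 0.01 to 0.15 for *Brca1*, *Bard1* and *Brca2*. In Δ-C60 against WT(N48) clones all 7 were negative, from -0.27 for *Bard1* to -0.04 for *Brca2*. The largest shift of a whole autosome's median in a library was 0.335 to 0.827 in the clones and 0.0551 to 0.165 in the populations. Copy number was not measured here, and its part in the clone results was not tested.

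**Figure D5:**
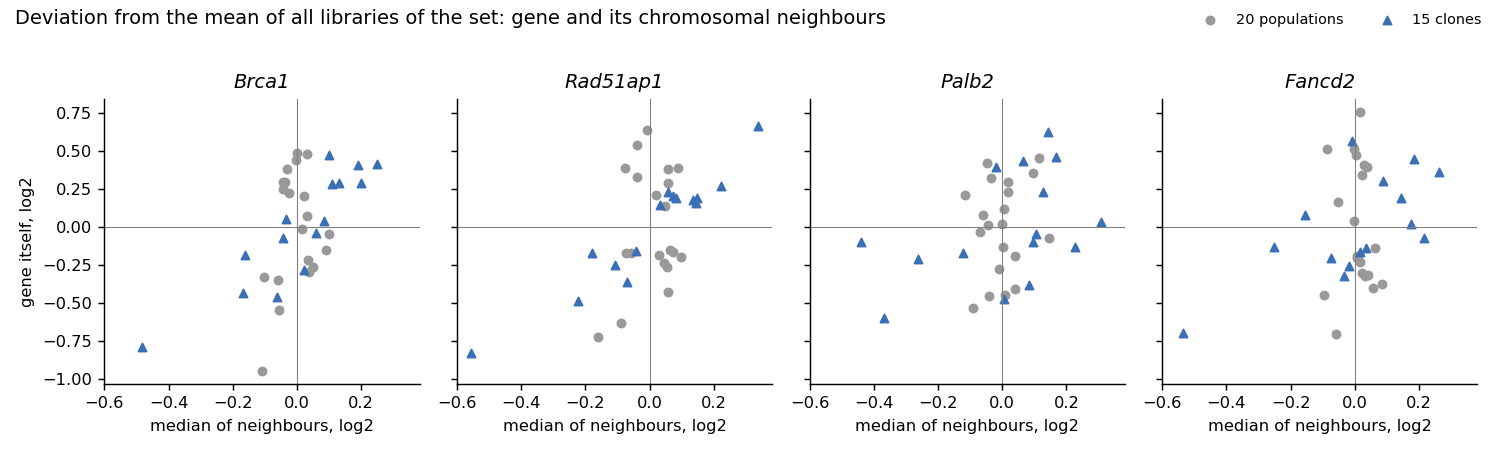
For 4 members, the deviation of the gene from the mean of its set (vertical axis, log2) against the median deviation of its neighbours within 10 Mb (horizontal axis, log2), with grey circles for 20 populations and blue triangles for 15 clones. Population points stay within a narrow band of neighbour values, while clone points of *Brca1* and *Rad51ap1* spread along a rising line (r = 0.891 and 0.953) and those of *Palb2* do so less (r = 0.448).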

How the data were processed

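The authors aligned 50-base single reads to mm10 with Bowtie2 (versions not given in the sources used here), kept alignments with MAPQ of at least 30 and deposited HTSeq read counts for 24421 genes per library. Whether counting used strand is not given in the sources used here. Reads assigned to no gene, 11.7 to 21.3% of populations and 9.14 to 12.0% of clones, were left out.

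Populations and clones were fitted separately in edgeR 4.0.16 (R 4.3.3): filterByExpr (13805 and 13223 genes), TMM, and a quasi-likelihood test over all groups of the set with Benjamini-Hochberg adjustment. RPKM used merged exon lengths. Alternatives were DESeq2 1.42.0, its size factors, no filter, a replicate block, the compared groups alone and leaving out each library. Replicate numbers paired the populations, given as independent experiments (45 of 45 correlations of deviations over 0.1, from 0.420 to 0.730), and not the clones (3 of 30). Between replicates 2 and 1 of the populations 23.0% of genes were called. The main fit held no replicate term, so its calls leave this pairing out, and the replicate block is the paired alternative. On simulated counts, for EV Ad-Cre against Ad-GFP (13646 genes), 49% of genes changed by log2 1 and 94% by log2 2 were recovered; for MT194 against WT-labelled clones (13095 genes), 23% and 83%. P-values for clones measure the spread between colonies of 1 parental line. Each member had 97 to 1307 reads in a population library and 153 to 4182 in a clone library.

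Members and lists were chosen with earlier results of these data known. Genes named are the members, NELF subunits, up to 2 called genes per list and direction in EV cells (else the smallest adjusted p), and the 5 genes most like *Brca1*; others are said to be named after their values were seen. Likeness is Pearson r of log2 CPM with a prior count of 2. Older symbols *Fam175a*, *Bre* and *Shfm1* were used. Upstream sequences are from RefSeq.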

Additional observations from a re-analysis of the deposited data

How the results depend on the processing

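Among the number of members called in each of the 24 comparisons, the following moved. WT-Cre against EV-Cre, at 1, had 2 with DESeq2 and with the replicate block, 0 with the compared groups alone, and 0 to 0 when 1 library was left out. The share of all genes that DESeq2 called in this comparison is not given here. With the replicate block, Ad-Cre against Ad-GFP in WT had 1 instead of 0, and MT486-Cre and the mean of the 4 NELFB constructs against EV-Cre had 3 instead of 0. DESeq2 also gave 3 in both of these, 3 for MT194 against WT-labelled clones and 1 for the Cre effect in WT minus EV, all 0 in edgeR, in fits that called 3.17%, 3.63%, 8.6% and 3.14% of genes. The mean of 5 Ad-Cre against Ad-GFP comparisons had 1 by adjusted p alone, and it and the mean of the 4 constructs each had 0 to 1 with 1 library left out. Δ-C60 against WT-labelled clones, at 2, had 0 over a log2 fold change of 1, with the compared groups alone or without WT-labelled clones 1 and 3 (a fit that called 3 genes in all), and 0 to 2 with 1 clone left out. The replicate block changed no other call of a member. Counts over all genes moved too. In EV cells 1626 were called, 3502 with the block, 239 with the compared groups alone and 734 to 1060 with 1 library left out. In WT-Cre against EV-Cre 1018 became 3175, 371 and 173 to 669. In Δ-C60 against WT-labelled clones 1102 became 718 with the block, where numbers do not pair the clones, 79 with the compared groups alone, 2058 with DESeq2 and 100 to 1779 with 1 clone left out. With 1 library left out 384 became 0 to 346 in MT194 and 278 became 10 to 606 in WT(N48) against WT-labelled clones, and 0 became 0 to 313 in Δ-C60 against WT(N48), where 313 was without Δ-C60 clone 2. In MT194 the block gave 52. With 1 library left out, Ad-Cre against Ad-GFP went from 582 to between 189 and 294 in MT194. It went from 334 to between 76 and 128 in MT486 and from 1369 to between 518 and 791 in DMT. The Cre effect in WT minus EV went from 94 to between 5 and 40. Against EV-Cre, MT486-Cre went from 50 to between 1 and 7 and MT194-Cre from 31 to between 1 and 4. The mean of the 4 constructs went from 183 to between 9 and 276. MT486 against WT-labelled clones called no gene in edgeR either before or after MT486 clones 1 and 2 were summed. The cause of these moves was not tested, beyond the fewer libraries in some fits.

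A tally of values under alternatives covered 112 main gene-level values, not those of all 24 comparisons. In it 1184 values kept direction and side, 35 reversed, 24 passed the threshold anew and 17 lost it. Leaving out 1 library reversed the sign of small differences, none of them called. In Ad-Cre against Ad-GFP the ranges were -0.48 to 0.08 for *Palb2* and -0.66 to 0.03 for *Bard1* in EV. In MT194 they were -0.0049 to 0.42 for *Palb2*, -0.29 to 0.44 for *Bard1*, -0.36 to 0.35 for *Brip1*, -0.45 to 0.52 for *Fancd2*, -0.57 to 0.02 for *Brca1* and -0.76 to 0.37 for *Rad51ap1*. They were -0.12 to 0.40 for *Brca1* in MT486, and in DMT -0.27 to 0.37 for *Brca1*, -0.16 to 0.40 for *Brip1* and -0.01 to 0.70 for *Rad51ap1*. *Brca1* in the mean of 5 ran from -0.12 to 0.02. In the Cre effect in MT194 minus that in EV they were -0.40 to 0.72 for *Rad51ap1*, -0.16 to 0.81 for *Fancd2* and -0.12 to 0.45 for *Brca2*. The Ad-GFP groups against EV-GFP turned sign for most members with each construct, from -0.54 to 0.54 among those that did. Against EV-Cre they were -0.10 to 0.46 for *Palb2* with WT and -0.34 to 0.78 for *Rad51ap1* with MT194. In clones they were -0.35 to 0.16 for *Brip1* and -0.58 to 0.01 for *Brca2* in Δ-C60 against WT(N48), -0.11 to 0.27 for *Bard1* in MT486 against WT, -0.03 to 0.36 for *Brca2* in WT(N48) against WT, and -0.33 to 0.13 for *Bard1* and -0.44 to 0.15 for *Brca2* in Δ-C60 against WT. Without WT-labelled clones 1 and 3, MT486 against WT gave -0.27 for *Bard1*, and WT(N48) against WT gave -0.13 for *Bard1*, -0.26 for *Brca2* and 0.03 for *Rad51ap1*. The simulated test recovered 49% of genes changed by log2 1 in EV cells, with 2 libraries a group, and 23% for MT194 against WT-labelled clones, with 3, so a member that changed by this size could go uncalled.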
